A study of Mus musculus with 12 samples.

Results

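The genes through which fat cells make, store and release triglyceride were followed in visceral adipose tissue under 4 diets. The set held 37 genes, 19 for synthesis and 18 for storage and breakdown, out of 20358 genes on the arrays. A gene entered through the probe sets whose platform annotation named exactly that gene, which gave 538 probe sets and a value for 37 of 37 genes. A gene value is the median log2 intensity of its probe sets on an array, so a difference of 1 is a doubling of intensity. The synthesis genes covered fatty acid synthesis (5 genes), desaturation and elongation (6), glycerolipid assembly (5) and lipogenic regulators (3). The storage and breakdown genes covered the droplet coat, lipolysis, and fatty acid and glycerol transport, with 6 genes each.

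The mice were male C57Bl/6J, an inbred strain, and were 20 weeks old. All of them, controls included, ate trans fat (20% w/w shortening, 8.68% w/w trans fat), so no group was free of it. The MSG+TFA diet added monosodium glutamate (MSG), a flavour enhancer, to the drinking water at 0.75 g/L. The ASP+TFA diet added aspartame (ASP), a dipeptide sweetener, at 0.25 g/L, the ASP+MSG+TFA diet held both additives at these doses, and the TFA diet, with plain water, was the control. Dams had been put on the diets at 6 weeks of age, 3 weeks before mating, and pups were weaned at 4 weeks onto the diet of the dam. Each diet had 15 mice and 3 arrays with RNA pooled from several mice, so that p-values measure the spread between pools. The mice had fasted overnight, and the tissue combined epididymal fat with fat around the reproductive organs, the omentum and the mesentery.

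White fat cells keep triglyceride in a large droplet. Fatty acids for it are built from citrate-derived acetyl-CoA by ATP citrate lyase, acetyl-CoA carboxylase and fatty acid synthase, or are freed from lipoproteins at the vessel wall by lipoprotein lipase and taken up. They are then desaturated, lengthened and joined to glycerol phosphate. Perilipins coat the droplet and hold back the lipases, and during a fast the lipases of the droplet cut triglyceride stepwise to fatty acids and glycerol. The pathway is known to follow insulin and feeding through the transcription factors SREBP-1 and ChREBP and, in fat cells, the nuclear receptor PPARγ.

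Promoters of 29 of the 37 genes, 41 promoters in all, were found in RefSeq sequence of build GRCm38.p6. Scd1, Scd2, Fads1, Dgat1, Dgat2, Lpl, Gpihbp1 and Fabp4 had no entry. The 250 bases before each start were searched on both strands for the nuclear receptor half-site AGGTCA, the E-box CACGTG, to which ChREBP and SREBP-1 can bind, and the sterol response element TCACNCCAC. The half-site was in 10 of 41 promoters of these genes, against 14% of 32851 promoters, and the genes with it were Abhd5, Acly, Aqp7, Cd36, Elovl6, Gpam, Lpin1, Plin2 and Plin5. An E-box was in 5 of 41 promoters, against 6.02% of all (Elovl5, Lipe, Mgll, Mlxipl and Slc27a1), and the sterol response element was in 1, against 1.05% of all (Mlxipl). The promoters of Plin5 and Lpin1 are shown because each gene has a promoter with the half-site, Plin5 had the smallest p of the 37 genes and the study discusses lipin 1, and those of Mlxipl because this gene, which encodes ChREBP, was the only one of the 29 with the sterol element and has an E-box at its other start. Capitals mark the match, positions count back from the start of the transcript, and a match is a description of letters, not of binding. Of the Plin5 promoters, 1 (chr17:56117549-56117798, minus strand) has a half-site at -170 and is printed, and the other (chr17:56117299-56117548, minus strand) has no match to the letters searched. The half-site of Lpin1 (chr12:16610967-16611216, minus strand) lies at -74. The first Mlxipl promoter (chr5:135106641-135106890, plus strand) has its sterol element at -136, and the second (chr5:135089640-135089889, plus strand) its E-box at -98.
Plin5: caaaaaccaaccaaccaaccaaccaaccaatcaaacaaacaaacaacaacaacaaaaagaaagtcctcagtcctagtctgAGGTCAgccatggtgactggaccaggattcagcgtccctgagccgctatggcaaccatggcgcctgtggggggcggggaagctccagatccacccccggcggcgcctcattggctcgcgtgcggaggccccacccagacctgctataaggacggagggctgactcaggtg
Lpin1: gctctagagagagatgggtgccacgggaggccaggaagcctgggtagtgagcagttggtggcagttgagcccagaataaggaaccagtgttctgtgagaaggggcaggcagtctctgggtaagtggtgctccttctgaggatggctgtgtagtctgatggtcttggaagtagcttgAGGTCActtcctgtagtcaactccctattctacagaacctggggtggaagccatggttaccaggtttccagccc
Mlxipl promoter 1: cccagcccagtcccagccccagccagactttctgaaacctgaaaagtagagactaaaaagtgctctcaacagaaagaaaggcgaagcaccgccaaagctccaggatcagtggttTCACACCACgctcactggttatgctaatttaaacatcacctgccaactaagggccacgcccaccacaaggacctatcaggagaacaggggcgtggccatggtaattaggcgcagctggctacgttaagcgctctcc
Mlxipl promoter 2: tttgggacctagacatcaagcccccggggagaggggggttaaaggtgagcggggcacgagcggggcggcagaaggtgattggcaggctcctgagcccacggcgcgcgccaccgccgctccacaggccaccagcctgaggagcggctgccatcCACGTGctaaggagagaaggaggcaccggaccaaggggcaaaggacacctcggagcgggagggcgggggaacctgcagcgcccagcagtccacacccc

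Some arrays stood apart before any diet was compared. On MSG+TFA replicates 1 and 2 and TFA replicates 1 and 2, called raised arrays here, olfactory and vomeronasal receptor genes, which fat should hardly express, had a median log2 value of 6.40 to 6.76, against 5.44 to 5.66 on the other 8 arrays. No array of the diets with aspartame was raised, so in their comparison with TFA the diet and the raised signal cannot be told apart for 2 of 3 TFA arrays. Adipocyte markers (7 genes) were bright on every array, with a mean of 11.80 to 12.19, and the brown fat marker Ucp1 was below the dim level of 6.61 throughout. RNA of neighbouring organs was also present: the mean of 8 epididymis markers ran between 5.43 and 12.75, with high and low arrays in every diet. Seminal vesicle markers were high on ASP+TFA replicate 2, ASP+MSG+TFA replicate 1 and TFA replicate 3, liver markers on MSG+TFA replicate 3 and ASP+MSG+TFA replicate 1, and pancreas markers on TFA replicate 2 alone. Spermatid markers averaged 10.33 on TFA replicate 2, 9.59 on ASP+MSG+TFA replicate 3 and 8.95 on ASP+TFA replicate 2. On the other arrays they averaged 5.76 to 7.95. In bulk tissue, fewer cells of a type and less RNA per cell cannot be told apart.

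No gene of the 37, and none of the 20358, passed the test in any comparison. With limma, an adjusted p under 0.05 and at least 1.4-fold, 0% of genes were called when an additive diet was set against TFA, when ASP+MSG+TFA was set against MSG+TFA or ASP+TFA, in the interaction of both additives and, by the F test, for any diet difference. The smallest adjusted p over all genes was 1 for MSG+TFA, 0.186 for ASP+TFA, 0.122 for ASP+MSG+TFA and 0.255 for the F test. At an unadjusted p under 0.05 no gene of the set differed in MSG+TFA, where 1.09% of all genes were higher and 1.06% lower. In ASP+TFA 1 of 37 was lower (Plin5), against 15.7% of all genes, and none was higher, against 6.94%. In ASP+MSG+TFA 1 was lower (Plin5), against 19.6%, and 1 higher (Scd2), against 9.15%. The F test gave an unadjusted p under 0.05 for 1 gene of 37 (Plin5) and for 18.1% of all genes. The shares of these genes were below the shares of all genes, and no gene below is said to have changed.

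Over the 12 arrays the directions differed between diets, but without the raised arrays 27 of 37 genes were lower than TFA in each additive diet. In MSG+TFA over 12 arrays 30 of 37 genes were lower than in TFA (15 of 19 for synthesis and 15 of 18 for storage and breakdown), while 46.6% of all genes were higher. In ASP+TFA 26 of 37 were higher (15 of 19 and 11 of 18), against 46% of all genes, and in ASP+MSG+TFA 21 of 37 were higher (10 of 19 and 11 of 18), against 46%. The sizes were small. The median log2 difference of the synthesis genes was -0.11 in MSG+TFA, 0.06 in ASP+TFA and 0.0014 in ASP+MSG+TFA, that of the storage and breakdown genes was -0.08, 0.04 and 0.03, and that of all genes was -0.02, -0.04 and -0.05. Over the 11533 genes above the dim level, as all 37 genes were, it was 0.03, 0.13 and 0.13. In ASP+TFA and ASP+MSG+TFA the medians of both sides were thus above that of all genes but below that of these brighter genes. These comparisons share the TFA arrays, so their directions are not independent of each other. Without MSG+TFA replicate 1, the median of the storage and breakdown genes in MSG+TFA turned positive, while that of the synthesis genes stayed negative.

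**Figure D1:**
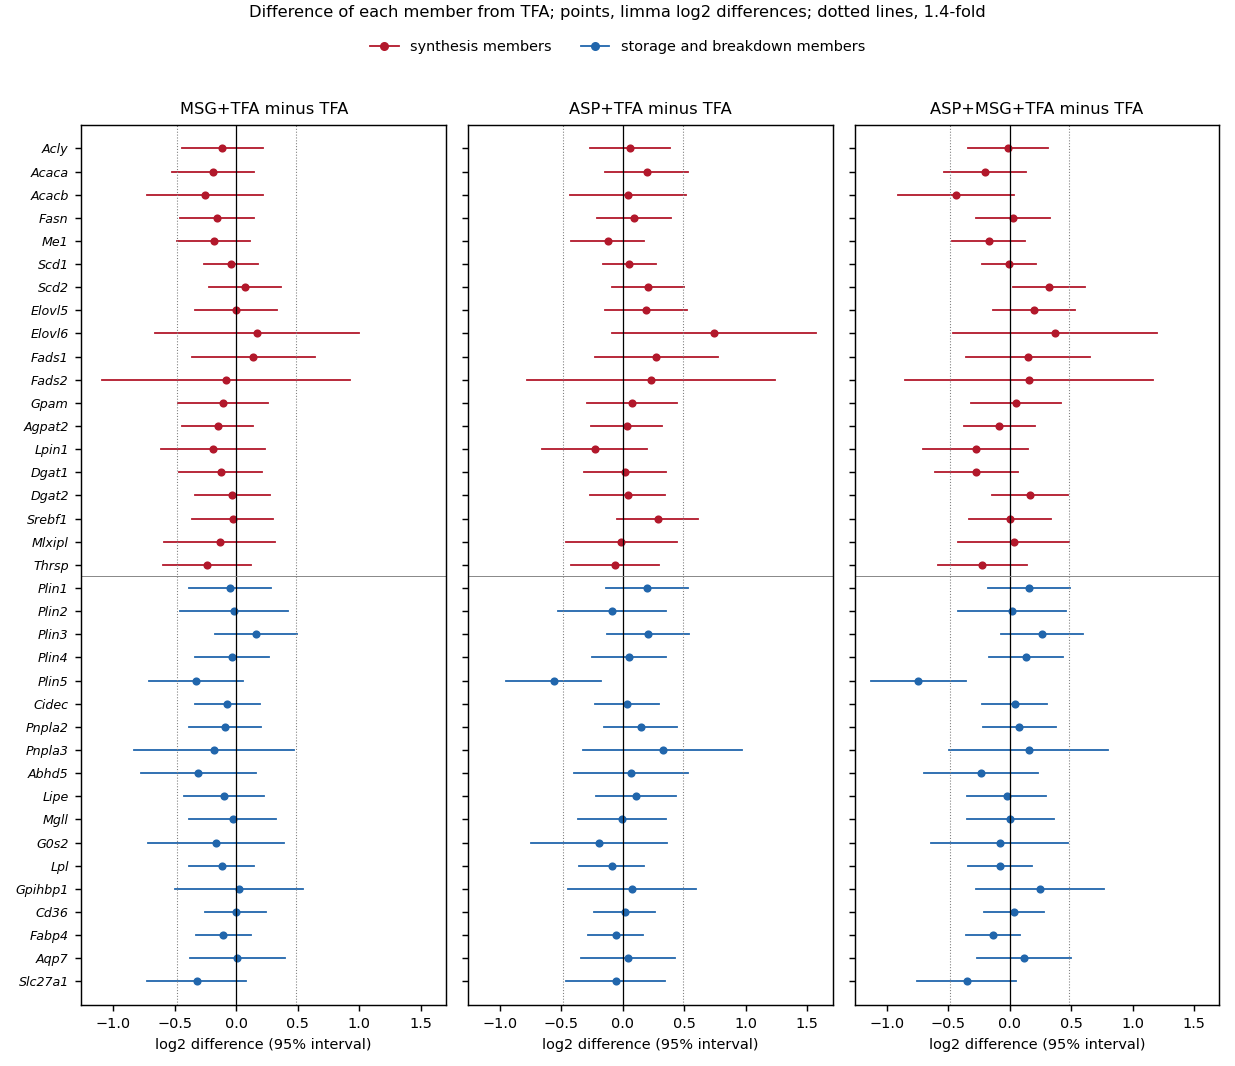
Log2 difference of each of the 37 genes from TFA in the 3 additive diets (horizontal axis) with the 95% interval of limma, synthesis genes in red above and storage and breakdown genes in blue below. Most points for MSG+TFA lie left of 0 (30 of 37) and most for ASP+TFA right of it (26 of 37). Plin5 lies farthest left in each panel, and the intervals of Elovl6 and Fads2 are the widest.

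Fatty acid synthesis genes were lower than TFA in MSG+TFA for 5 of 5 genes (median difference -0.18), higher in ASP+TFA for 4 of 5 (0.06) and lower in ASP+MSG+TFA for 4 of 5 (-0.17). Acaca encodes the cytosolic acetyl-CoA carboxylase that makes malonyl-CoA for fatty acid synthesis. Its log2 values were 11.29, 11.57 and 11.65 on the MSG+TFA arrays, 12.06, 11.62 and 11.97 on the ASP+TFA arrays and 11.47, 11.49 and 11.51 on the ASP+MSG+TFA arrays, against 11.54, 11.68 and 11.85 on the TFA arrays. Every ASP+MSG+TFA array was therefore below every TFA array, while the other diets overlapped TFA. The differences from TFA were -0.19, 0.19 and -0.20 ± 0.15 (limma SE, unadjusted p = 0.213 and adjusted p = 0.383 for ASP+MSG+TFA), and 17 of its 18 probe sets were lower in ASP+MSG+TFA. Acacb encodes the mitochondrial carboxylase, whose malonyl-CoA restrains the entry of fatty acids into mitochondria. Acacb had 10.75, 10.99 and 11.26 in MSG+TFA, 11.60, 10.97 and 11.30 in ASP+TFA and 10.85, 10.91 and 10.70 in ASP+MSG+TFA, against 10.98, 11.14 and 11.63 in TFA. The ASP+MSG+TFA arrays again lay wholly below the TFA arrays, with a difference of -0.43 ± 0.21 (limma, unadjusted p = 0.068, adjusted p = 0.2), and 47 of 52 probe sets were lower. The mean of the 52 differed by -0.23 and the brightest by -0.01. In ASP+TFA, by contrast, the difference was 0.04 and 41 of 52 probe sets were higher.

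Fasn, the fatty acid synthase itself, was bright and nearly level, with 12.68, 12.94 and 12.98 in MSG+TFA, 13.18, 12.94 and 13.23 in ASP+TFA and 13.09, 12.98 and 13.09 in ASP+MSG+TFA, against 12.93, 12.95 and 13.19 in TFA. Its differences were -0.16, 0.09 and 0.03 ± 0.14 (limma SE). Me1, the malic enzyme that supplies NADPH for synthesis, had 12.61, 12.88 and 12.84 in MSG+TFA, 12.86, 12.66 and 12.99 in ASP+TFA and 12.77, 12.78 and 12.82 in ASP+MSG+TFA, against 12.79, 13.04 and 13.05 in TFA. Me1 was lower than TFA in each additive diet, by -0.18, -0.12 and -0.17 ± 0.13 on the log2 scale, with overlapping arrays. Acly, the ATP citrate lyase, differed by -0.11, 0.06 and -0.01 ± 0.15. Between ASP+MSG+TFA and ASP+TFA, 5 of 5 genes of this list were lower (median -0.07). Acaca was lower by -0.39 ± 0.15 (limma, unadjusted p = 0.0256, adjusted p = 1) and Acacb by -0.47 ± 0.21 (unadjusted p = 0.0497, adjusted p = 1). They were the only genes of the 37 with an unadjusted p under 0.05 in that comparison, against 0.771% of all genes lower and 0.81% higher.

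**Figure D2:**
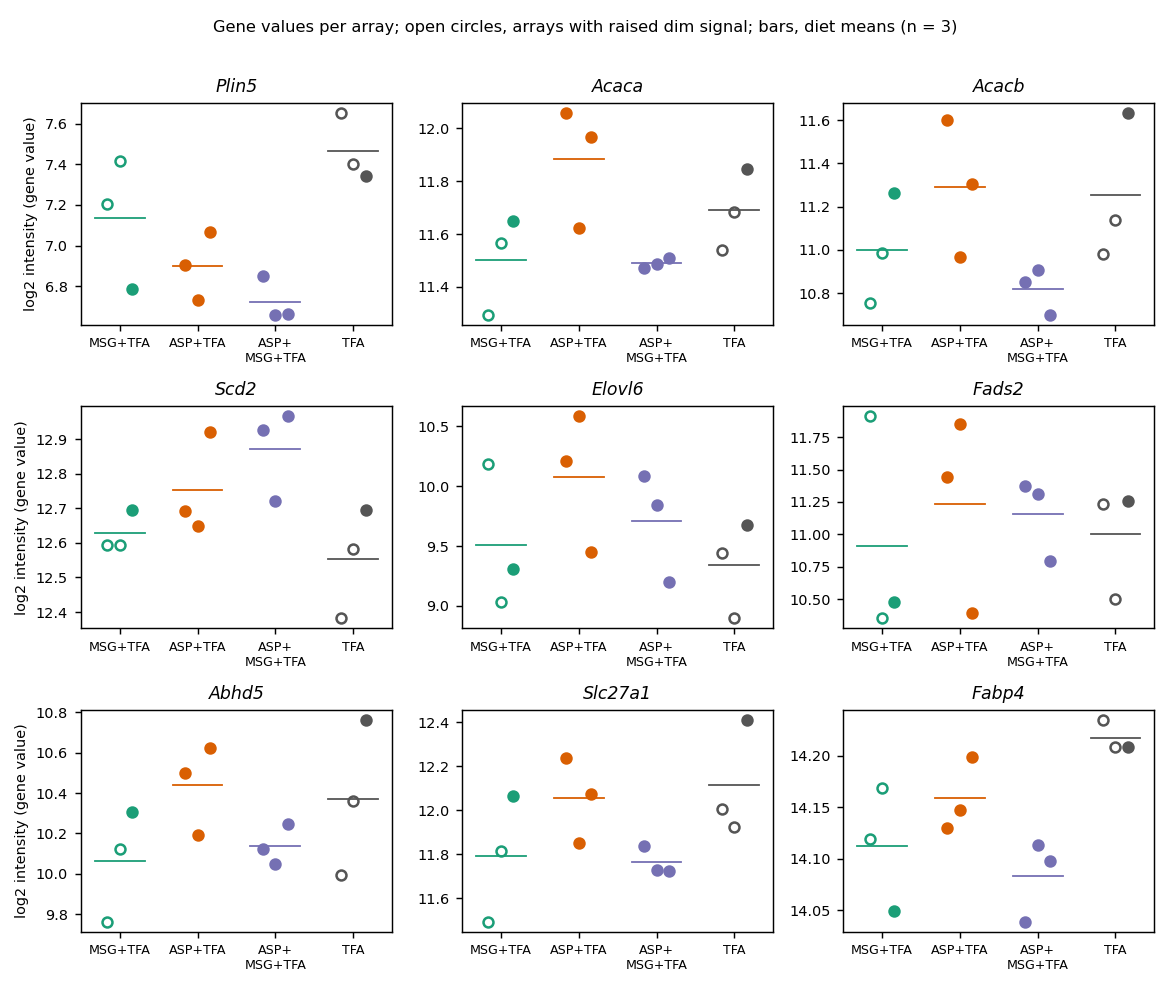
Log2 gene values (vertical axis, a scale of its own for each gene) of 9 genes on the 12 arrays, grouped by diet, with bars at the diet means (n = 3) and open circles for the raised arrays. Fabp4 was highest on the TFA arrays, Plin5 had its highest mean there (7.47), and the ASP+MSG+TFA arrays of Acaca, Acacb and Slc27a1 lie together below those of TFA. Elovl6 and Fads2 spread widely within each diet.

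Of the desaturation and elongation genes, 6 of 6 were higher than TFA in ASP+TFA (median difference 0.22), 5 of 6 in ASP+MSG+TFA (0.18) and 4 of 6 in MSG+TFA (0.04). Scd2 encodes a stearoyl-CoA desaturase, which turns saturated into monounsaturated fatty acids. It had 12.59, 12.59 and 12.69 in MSG+TFA, 12.69, 12.65 and 12.92 in ASP+TFA and 12.93, 12.72 and 12.97 in ASP+MSG+TFA, against 12.38, 12.58 and 12.70 in TFA. The ASP+MSG+TFA arrays lay above all TFA arrays, though the lowest of them cleared the highest TFA array only narrowly. The difference there was 0.32 ± 0.13 (limma, unadjusted p = 0.0361, adjusted p = 0.153), and 5 of 5 probe sets were higher in each of the 3 comparisons with TFA. On the 8 arrays that were not raised, with 1 TFA array, it was 0.18. Scd1, the main desaturase of fat and liver, was very bright (mean 13.95) and had among the smallest spreads of any gene, with an SD of 0.0336 within diets. Its differences were -0.04 in MSG+TFA and 0.05 in ASP+TFA, with an SE of 0.10.

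Elovl6, which lengthens palmitate to stearate, showed the largest difference of the synthesis genes. It had 10.18, 9.04 and 9.31 in MSG+TFA, 10.21, 10.58 and 9.45 in ASP+TFA and 10.09, 9.84 and 9.20 in ASP+MSG+TFA, against 9.44, 8.90 and 9.67 in TFA. All diets overlapped. The difference was 0.74 ± 0.38 in ASP+TFA (limma, unadjusted p = 0.0748, adjusted p = 0.253), 0.37 in ASP+MSG+TFA and 0.17 in MSG+TFA. Fads2, the delta-6 desaturase of polyunsaturated fatty acids, spread even more, with 11.91, 10.35 and 10.48 in MSG+TFA, 11.44, 11.85 and 10.40 in ASP+TFA and 11.37, 11.31 and 10.79 in ASP+MSG+TFA, against 11.24, 10.50 and 11.26 in TFA. Its within-diet SD of 0.632 exceeded that of 93.6% of all genes, and that of Elovl6, 0.515, exceeded 89.1%.

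The lowest array of both genes was set against the epididymis markers. In each diet, the array on which these markers were lowest (MSG+TFA replicate 2, ASP+TFA replicate 3, ASP+MSG+TFA replicate 3 and TFA replicate 2, with 0 or 1 of 8 markers above the dim level) was also the lowest for Elovl6 and for Fads2. Being lowest there in 4 of 4 diets held for 2 of 37 genes and for 953 of all genes (4.68%), a like share. Fads1, the delta-5 desaturase, and Plin3 were lowest there in 3 of 4 diets. The rest of the order did not always follow the markers: in TFA, Elovl6 was higher on replicate 3 (9.67, marker level 8.11) than on replicate 1 (9.44, marker level 12.10). The markers were split on TFA replicate 3, where 3 of 8 were above the dim level. With the epididymis marker level as a term in the fit, the Elovl6 difference in ASP+TFA was 0.58 in place of 0.74 (limma, unadjusted p = 0.0148, adjusted p = 0.183). Elovl5, an elongase of polyunsaturated fatty acids, did not share the pattern, and its differences were 0.19 in ASP+TFA and 0.20 in ASP+MSG+TFA, with an SE of 0.15.

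**Figure D3:**
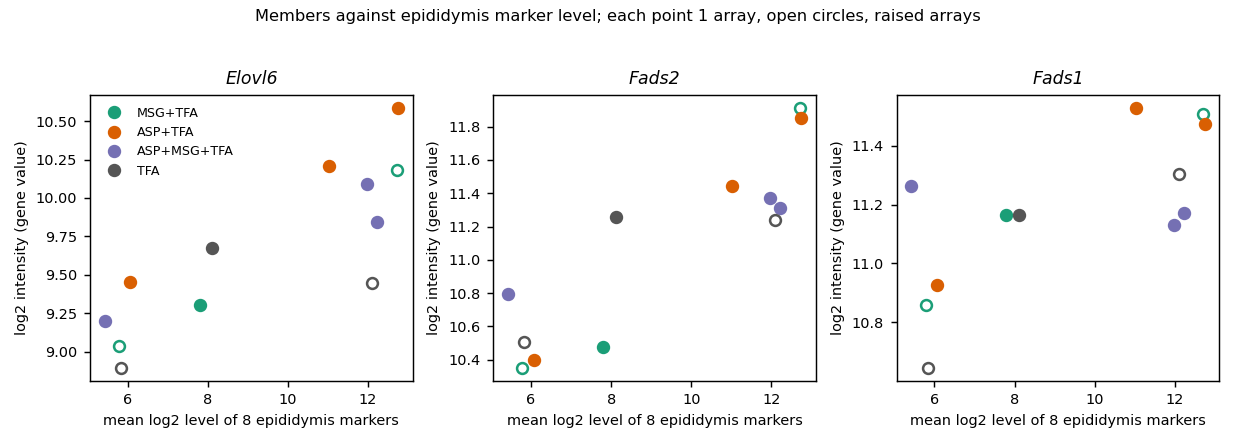
Log2 values of Elovl6, Fads2 and Fads1 (vertical axes) against the mean log2 level of 8 epididymis markers (horizontal axes), each point 1 array, coloured by diet, with open circles for the raised arrays. The 4 arrays with the lowest marker level, between 5.43 and 6.07, include the lowest Elovl6 and Fads2 value of each diet.

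Glycerolipid assembly, the stepwise joining of fatty acids to glycerol phosphate, was lower in MSG+TFA for 5 of 5 genes (median -0.13) and close to TFA in ASP+TFA (0.03) and ASP+MSG+TFA (-0.08). Dgat1, which together with Dgat2 makes the last step to triglyceride, had 11.87, 12.30 and 12.16 in MSG+TFA, 12.39, 12.01 and 12.36 in ASP+TFA and 11.96, 11.95 and 11.99 in ASP+MSG+TFA, against 12.15, 12.17 and 12.40 in TFA. The ASP+MSG+TFA arrays were all below the TFA arrays, by -0.27 ± 0.15 (limma, unadjusted p = 0.104, adjusted p = 0.25), and 17 of 17 probe sets were lower. Their mean differed by -0.30 and the brightest by -0.0085. Dgat2 went the other way in that diet, with 12.95, 12.86 and 13.05, against 12.72, 12.80 and 12.85 in TFA. These arrays did not overlap either, and the difference was 0.17 ± 0.14 (unadjusted p = 0.257, adjusted p = 0.431).

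Lpin1 encodes a phosphatidate phosphatase, which also works with PPAR coactivators, and holds the half-site printed above. It had 11.48, 11.86 and 11.79 in MSG+TFA, 11.85, 11.21 and 11.95 in ASP+TFA and 11.53, 11.62 and 11.73 in ASP+MSG+TFA, against 11.92, 12.00 and 11.78 in TFA. The ASP+MSG+TFA arrays lay below the TFA arrays and the others overlapped them. The differences were -0.19, -0.23 and -0.27 ± 0.19 (limma, adjusted p = 1, 0.461 and 0.35). Its probe sets did not support the sign in ASP+TFA: 18 of 25 were higher there, the brightest was higher by 0.20, and the mean of all 25 differed by 0.13 in place of -0.23. In MSG+TFA 24 of 25 were lower and in ASP+MSG+TFA 17 of 25. Gpam, the glycerol phosphate acyltransferase of mitochondria, differed by -0.10, 0.07 and 0.05 ± 0.17, and Agpat2, the next acyltransferase and a gene lost in a human lipodystrophy, by -0.15, 0.03 and -0.08 ± 0.13.

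Among the regulators, Srebf1, which encodes SREBP-1, had 9.61, 9.64 and 9.74 in MSG+TFA, 10.11, 9.93 and 9.89 in ASP+TFA and 9.74, 9.59 and 9.76 in ASP+MSG+TFA, against 9.58, 9.49 and 10.01 in TFA. The ASP+TFA arrays were above both raised TFA arrays, and only ASP+TFA replicate 1 was above TFA replicate 3. The difference in ASP+TFA was 0.28 ± 0.15 (limma, unadjusted p = 0.0882, adjusted p = 0.273) with 19 of 20 probe sets higher, and on the 8 arrays that were not raised it was -0.04. Thrsp (Spot 14), a protein that follows lipogenesis, had 12.04, 12.29 and 12.50 in MSG+TFA, 12.62, 12.19 and 12.55 in ASP+TFA and 12.21, 12.35 and 12.33 in ASP+MSG+TFA, against 12.38, 12.48 and 12.70 in TFA. ASP+MSG+TFA was below TFA without overlap, by -0.22 ± 0.16 (adjusted p = 0.37), and MSG+TFA differed by -0.24 ± 0.16 (adjusted p = 1). Mlxipl, whose promoters are printed above, had 7.95, 8.09 and 8.24 in MSG+TFA, 8.51, 8.13 and 8.01 in ASP+TFA and 8.32, 8.00 and 8.46 in ASP+MSG+TFA, against 8.12, 7.95 and 8.61 in TFA, with overlap throughout.

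The droplet coat held the gene with the smallest p of all 37. Plin5 encodes a perilipin that is known mostly from tissues that burn fat, where it ties the droplet to mitochondria, and it was the dimmest gene of the set (mean 7.06, against a dim level of 6.61). It had 7.20, 7.41 and 6.79 in MSG+TFA, 6.91, 6.73 and 7.07 in ASP+TFA and 6.85, 6.66 and 6.66 in ASP+MSG+TFA, against 7.65, 7.40 and 7.34 in TFA. All arrays of both diets with aspartame were below all TFA arrays, and 1 MSG+TFA array overlapped them. The differences were -0.33 ± 0.17 in MSG+TFA (limma, unadjusted p = 0.0854, adjusted p = 1), -0.56 ± 0.17 in ASP+TFA (0.0081 and 0.186) and -0.74 ± 0.17 in ASP+MSG+TFA (0.00142 and 0.122), a size of 1.67-fold in the last. The F test over the 4 diets gave an unadjusted p of 0.00782 and an adjusted p of 0.255. Against MSG+TFA, ASP+MSG+TFA was lower by -0.41 ± 0.17 (limma, unadjusted p = 0.0379, adjusted p = 0.311), the only gene of the 37 with an unadjusted p under 0.05 there, against 12.6% of all genes lower and 3.09% higher.

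Plin5 was also a gene on which raised arrays read higher, by 0.52 in MSG+TFA and 0.18 in TFA relative to replicate 3 of the same diet. On the 8 arrays that were not raised, the differences were -0.55 in MSG+TFA, -0.44 in ASP+TFA and -0.62 in ASP+MSG+TFA. TFA and MSG+TFA have 1 array each there, so a p-value could not measure the spread between their pools. Its probe sets were uneven. In ASP+MSG+TFA 7 of 9 were lower, with differences between -1.07 and 1.15, and in ASP+TFA 6 of 9. The brightest differed by -0.45 in ASP+MSG+TFA and -0.37 in ASP+TFA, whereas the mean of the 9 probe sets differed by -0.30 and -0.08.

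**Figure D4:**
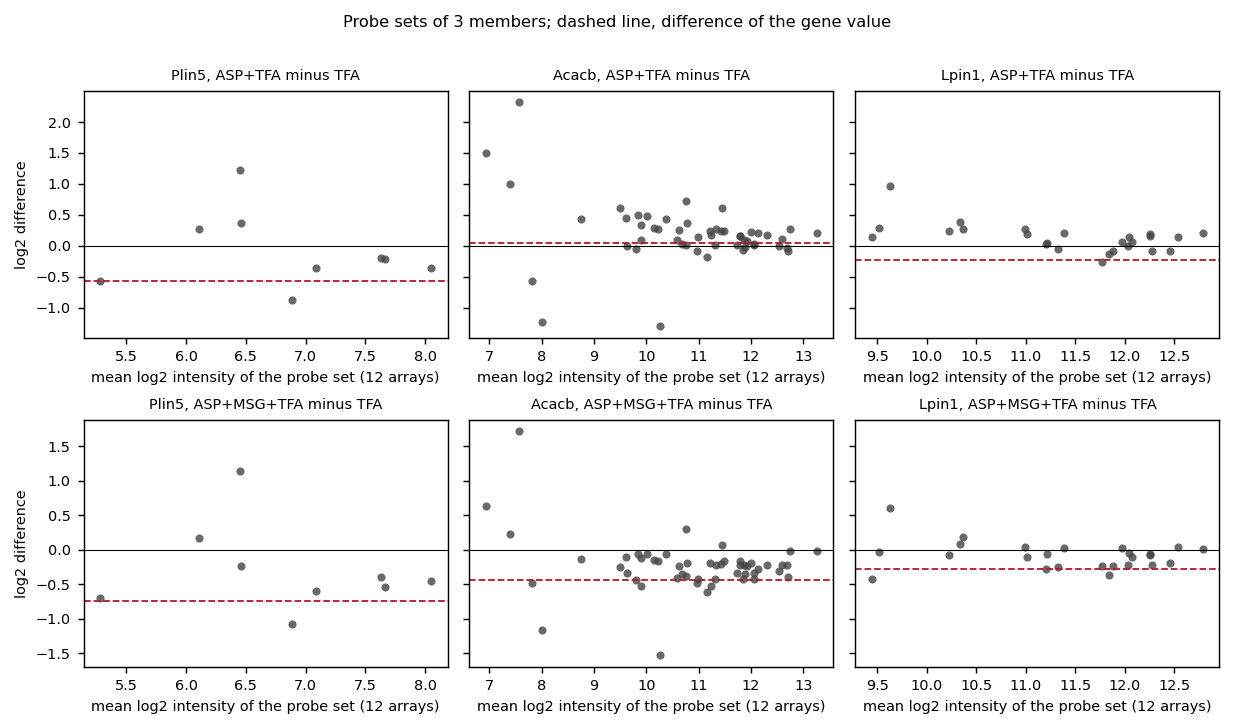
Log2 difference from TFA (vertical axis) of each probe set of Plin5, Acacb and Lpin1 against its mean log2 intensity over 12 arrays (horizontal axis), for ASP+TFA (top) and ASP+MSG+TFA (bottom), with the gene value's difference as a dashed line. Of 9 Plin5 probe sets 7 lie below 0 in ASP+MSG+TFA, and 47 of 52 for Acacb. In ASP+TFA most Lpin1 probe sets (18 of 25) lie above 0 although the gene value lies below it.

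None of the other coat genes passed the test. Plin1, the perilipin that guards the large droplet of white fat cells, had 11.97, 12.12 and 12.33 in MSG+TFA, 12.51, 12.20 and 12.45 in ASP+TFA and 12.29, 12.35 and 12.42 in ASP+MSG+TFA, against 12.13, 12.01 and 12.43 in TFA. Its differences were -0.05, 0.20 and 0.16 ± 0.15 (limma SE), with overlap in each diet. Plin3, a perilipin found in most cells, had 8.81, 8.89 and 9.17 in MSG+TFA, 8.99, 9.07 and 8.94 in ASP+TFA and 9.13, 9.07 and 8.97 in ASP+MSG+TFA, against 8.74, 8.58 and 9.06 in TFA. It was higher than TFA in each additive diet, by 0.16, 0.21 and 0.26 ± 0.15 (adjusted p = 1, 0.4 and 0.256), but on the 8 arrays that were not raised the last 2 values were -0.06 and -0.01. Plin4, a coat protein of small droplets, lay above TFA without overlap in ASP+MSG+TFA, at 12.65, 12.63 and 12.72, against 12.58, 12.46 and 12.55 in TFA (difference 0.13 ± 0.14, adjusted p = 0.523). Plin2 differed by -0.02, -0.09 and 0.02 ± 0.20, and Cidec, which fuses droplets, by -0.07, 0.03 and 0.04 ± 0.12.

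Lipolysis genes were lower than TFA in MSG+TFA for 6 of 6 genes (median -0.13), higher in ASP+TFA for 4 of 6 (0.09) and divided in ASP+MSG+TFA (-0.01). Without MSG+TFA replicate 1, the MSG+TFA differences were 0.13 for Mgll, 0.06 for Pnpla3 and 0.03 for G0s2. Those of Abhd5 (-0.16), Lipe (-0.03) and Pnpla2 (-0.01) stayed negative. Pnpla2, the adipose triglyceride lipase that makes the first cut, had 12.50, 12.68 and 12.83 in MSG+TFA, 13.06, 12.70 and 12.96 in ASP+TFA and 12.86, 12.84 and 12.83 in ASP+MSG+TFA, against 12.71, 12.73 and 12.84 in TFA. Its differences of -0.09, 0.14 and 0.08 ± 0.13 (limma SE) were within the spread of the arrays. Abhd5 (CGI-58), the coactivator of that lipase, had 9.76, 10.12 and 10.31 in MSG+TFA, 10.50, 10.19 and 10.62 in ASP+TFA and 10.12, 10.05 and 10.25 in ASP+MSG+TFA, against 9.99, 10.36 and 10.76 in TFA. Every diet overlapped TFA, and the differences were -0.31, 0.07 and -0.23 ± 0.21 (adjusted p = 1, 0.861 and 0.472). All 9 Abhd5 probe sets were lower in ASP+MSG+TFA.

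G0s2, the inhibitor of the same lipase, differed by -0.16, -0.19 and -0.08 ± 0.25. Lipe, the hormone-sensitive lipase that cuts diacylglycerol, differed by -0.10, 0.11 and -0.02 ± 0.15, and Mgll, the monoacylglycerol lipase, by -0.03, -0.01 and 0.01 ± 0.16. Pnpla3, a relative of the first lipase that is known to follow feeding, was the widest of the list, with -0.18, 0.32 and 0.16 ± 0.29. Its lowest values, 9.64 in MSG+TFA and 9.90 in TFA, were both on raised arrays.

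Among the transport genes, Slc27a1, a fatty acid transport protein, had 11.49, 11.81 and 12.07 in MSG+TFA, 12.24, 11.85 and 12.07 in ASP+TFA and 11.84, 11.73 and 11.72 in ASP+MSG+TFA, against 12.00, 11.92 and 12.41 in TFA. Only ASP+MSG+TFA was clear of TFA, by -0.35 ± 0.18 (limma, unadjusted p = 0.0823, adjusted p = 0.22), with 12 of 15 probe sets lower but the brightest at 0.04. Fabp4, the fatty acid binding protein of fat cells and the brightest gene of the set, was below TFA without overlap in each additive diet. It had 14.12, 14.17 and 14.05 in MSG+TFA, 14.13, 14.15 and 14.20 in ASP+TFA and 14.04, 14.11 and 14.10 in ASP+MSG+TFA, against 14.23, 14.21 and 14.21 in TFA. The differences were small, -0.10, -0.06 and -0.13 ± 0.10 (adjusted p = 1, 0.729 and 0.382), and its spread within diets, 0.0408, was among the smallest on the arrays. With quantile normalization of gene values the differences were smaller still, -0.033, -0.014 and -0.014. Of all genes 0.815% were below TFA in this way in all 3 diets and 0.752% above. In ASP+TFA 5 of 9 Fabp4 probe sets were higher.

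Lpl, the lipoprotein lipase, was below TFA without overlap in MSG+TFA, with 13.26, 13.40 and 13.40, against 13.46, 13.43 and 13.53 in TFA (difference -0.12 ± 0.12, adjusted p = 1). Gpihbp1, which carries this lipase to the capillary wall, was above TFA without overlap in ASP+MSG+TFA, with 10.81, 10.81 and 10.92, against 10.49, 10.54 and 10.77 in TFA (0.25 ± 0.23, adjusted p = 0.487). Cd36, a fatty acid receptor, differed by at most 0.04 in ASP+MSG+TFA and 0.02 in ASP+TFA. Aqp7, the glycerol channel, differed by 0.01, 0.04 and 0.11 ± 0.17.

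Separation from TFA was counted over the set. In MSG+TFA 0 genes lay above TFA and 2 below (Lpl and Fabp4), against 2.06% and 2.53% of all genes. In ASP+TFA 0 were above and 2 below (Plin5 and Fabp4), against 7.17% and 11.7%. In ASP+MSG+TFA 4 were above (Scd2, Dgat2, Plin4 and Gpihbp1) and 8 below (Acaca, Acacb, Lpin1, Dgat1, Thrsp, Plin5, Fabp4 and Slc27a1), against 13.7% and 17.9%. The 8 below are 21.6% of the 37 genes, close to the share of all genes. In that diet 6 of 6 macrophage markers were also above TFA without overlap (mean level 10.27 to 10.53, against 9.16 to 9.77 in TFA), as were 4 of 5 fibroblast and 3 of 4 endothelial markers, while 0 of 7 adipocyte markers were above and 2 below. Their part in the values of the 37 genes was not tested.

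By diet mean, MSG+TFA was the lowest of the 4 diets for 21 of 37 genes, against 18% of all genes, and the highest for 0, against 16.1%. ASP+TFA was the highest for 17, against 22.4% of all genes, 12 of them synthesis genes. ASP+MSG+TFA was the highest for 12, against 24.9% of all genes, and 8 of the 12 were storage and breakdown genes. TFA was the highest for 8, against 36.6% of all genes. Between ASP+MSG+TFA and MSG+TFA, 30 of 37 genes were higher in the diet with both additives (15 of 19 and 15 of 18), with medians of 0.07 for synthesis and 0.08 for storage and breakdown, against 48.6% of all genes higher. Of the 37 genes 20 changed sign in this comparison with raised arrays as a term in the fit, and 18 on the 8 arrays that were not raised. Between ASP+MSG+TFA and ASP+TFA, 15 of 19 synthesis genes were lower (median -0.07), whereas 10 of 18 storage and breakdown genes were higher (0.01). In the interaction of the additives, whether their joint difference departs from the sum of both, the smallest adjusted p of the 37 genes was 1 (limma), and 0 of them had an unadjusted p under 0.05.

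Same-numbered arrays of MSG+TFA and TFA deviated together and were compared as pairs. The sample titles do not pair them, so the pairing was inferred from the same values that are counted here. In both diets replicates 1 and 2 were raised and replicate 3 was not. Their epididymis marker levels also ran alike (12.10, 5.83 and 8.11 in TFA, 12.72, 5.78 and 7.80 in MSG+TFA). Arrays with unlike numbers correlated as strongly, such as MSG+TFA replicate 1 and ASP+TFA replicate 2 (0.644). The counts and the p-value below are therefore no independent support. Of the 37 genes 13 were lower in MSG+TFA in all 3 pairs (7 synthesis and 6 storage and breakdown genes), against 16.3% of all genes, and 1 was higher in all 3 (Plin3), against 12.9%. Abhd5 was lower by -0.23, -0.24 and -0.46 in the pairs and was the only gene with an unadjusted p under 0.05 (0.0489, adjusted p = 0.781, limma with the pair as a block, 2 residual degrees of freedom), against 5.82% of all genes. No gene was called.

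Synthesis was set against storage and breakdown on each array through the median deviation of each side from the gene's mean over 12 arrays. Both sides moved together more than apart. Both were lowest on MSG+TFA replicate 1 (synthesis -0.23, storage and breakdown -0.30). They were also below 0 on ASP+TFA replicate 2 (-0.07 and -0.16), and high on ASP+TFA replicate 1 (0.21 and 0.08), ASP+TFA replicate 3 (0.16 and 0.16) and TFA replicate 3 (0.21 and 0.11). MSG+TFA replicate 1 and ASP+TFA replicate 2 also had the lowest adipocyte marker levels, 11.84 and 11.80. In all 4 diets, 6 of 37 genes (Acaca, Me1, Thrsp, Plin2, Mgll and Aqp7) were lowest on the array with the lowest adipocyte markers, against 5.56% of all genes. The median level of the synthesis genes minus that of the storage and breakdown genes was -0.47 ± 0.24 in MSG+TFA, -0.32 ± 0.06 in ASP+TFA and -0.62 ± 0.04 in ASP+MSG+TFA, against -0.47 ± 0.08 in TFA (mean log2 difference, SD, n = 3 each). Since levels of different genes rest on probes of different sensitivity, only its change between diets can be read. The ASP+TFA arrays lay above the TFA arrays (-0.38, -0.26 and -0.32, against -0.48, -0.39 and -0.55) and the ASP+MSG+TFA arrays below them (-0.59, -0.60 and -0.66). A median level is the value of the middle gene. On the synthesis side this was Acaca on every ASP+MSG+TFA array (11.47, 11.49 and 11.51) and on TFA replicates 1 and 2 (11.54 and 11.68). The lower position of ASP+MSG+TFA therefore largely restates the Acaca values given above and is no separate contrast of the sides. The deviation of the synthesis side minus that of the storage and breakdown side overlapped between the diets, with 0.07, -0.03 and -0.09 in MSG+TFA, 0.13, 0.09 and 0.00 in ASP+TFA and 0.05, -0.06 and -0.06 in ASP+MSG+TFA, against -0.03, -0.02 and 0.10 in TFA.

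**Figure D5:**
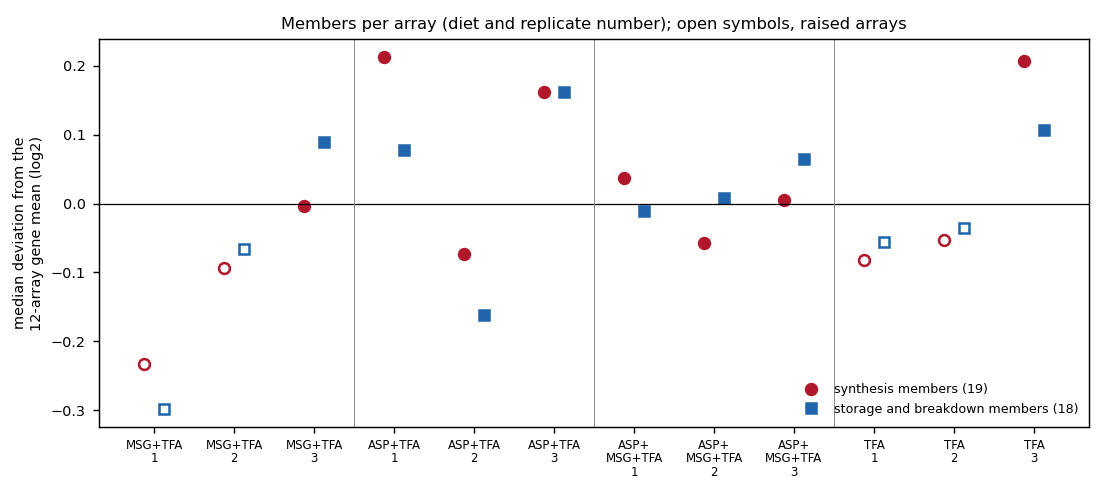
Median deviation (log2, vertical axis) of the 19 synthesis genes (red circles) and the 18 storage and breakdown genes (blue squares) from their means over 12 arrays, for each array by diet and replicate number, with open symbols for the raised arrays. Both sides are lowest on MSG+TFA replicate 1 and are high together on ASP+TFA replicate 3.

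Most of these genes had lower values on the raised arrays than on replicate 3 of the same diet. These pools also differed in content. Seminal vesicle markers averaged 12.93 on TFA replicate 3, against 6.67 and 6.33 on TFA replicates 1 and 2. Liver markers averaged 9.00 on MSG+TFA replicate 3, against 6.46 and 7.13 on MSG+TFA replicates 1 and 2. Raised signal and pool content cannot be told apart here. Of the 37 genes 28 were lower on the raised arrays than on replicate 3 of the same diet in both MSG+TFA and TFA (75.7%, against 37.8% of all genes), with medians of -0.19 and -0.24. Pnpla3 differed by -0.80 and -0.81, G0s2 by -0.59 and -0.67, Abhd5 by -0.36 and -0.59 and Slc27a1 by -0.41 and -0.45. Higher in both were 3 genes, Plin5, Fabp4 and Cd36. Gene values spread less on the raised arrays, with an interquartile range of 2.19 to 2.39 log2 units, against 2.95 to 3.12 on the other arrays. All 37 genes were above the dim level, so the share of all genes is not matched to them for brightness. Whether brightness accounts for the 75.7% was not tested. Without the raised arrays, 27 of 37 genes were lower than TFA in each of the 3 additive diets, against 50.1%, 54.4% and 56.2% of all genes, with medians of -0.16 in MSG+TFA, -0.08 in ASP+TFA and -0.12 in ASP+MSG+TFA. The direction thus turned in ASP+TFA (26 of 37 higher over 12 arrays) and in ASP+MSG+TFA (21 of 37 higher), and TFA then stood on replicate 3 alone. In ASP+MSG+TFA the values farthest from 0 in that fit were -0.81 for Acacb, -0.65 for Slc27a1 and -0.62 for Abhd5. In the other diets, Fads2 was at -0.78 in MSG+TFA and G0s2 at -0.64 in ASP+TFA.

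These genes were measured more evenly than most. Their median SD within diets was 0.167, against 0.264 over all genes. All 37 were above the dim level, as were 11533 of the 20358 genes, and the comparisons with all genes here are not matched for brightness. ASP+MSG+TFA had the smallest SD of the 4 diets for 23 of 37 genes (62.2%, against 48.4% of all genes), with a median SD of 0.0673, against 0.158 in TFA. The 95% interval of the difference from TFA lay wholly within 1.4-fold either way for 22 of 37 genes in MSG+TFA, 20 in ASP+TFA and 17 in ASP+MSG+TFA, against 28.8%, 19.6% and 17.7% of all genes. Acly, Fasn, Me1, Scd1, Gpam, Agpat2, Dgat2, Plin4, Cidec, Pnpla2, Lipe, Mgll, Lpl, Cd36 and Fabp4 were within it in all 3 diets. For Elovl6, Fads2, Pnpla3 and Plin5, among others, the intervals reached past it in each diet.

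Other genes of the pathway gave a similar picture. Of 54 listed, 50 were measured, and Ces1d and the 3 β-adrenergic receptors were not matched. None of 29 synthesis genes and none of 21 storage and breakdown genes was called by limma. At an unadjusted p under 0.05, 0 differed in MSG+TFA, 1 synthesis and 1 storage gene were higher and 1 storage gene lower in ASP+TFA, and 2 synthesis genes and 1 storage gene were lower in ASP+MSG+TFA. Of all genes, 1.09% were higher and 1.06% lower in MSG+TFA, 6.94% and 15.7% in ASP+TFA, and 9.15% and 19.6% in ASP+MSG+TFA. In MSG+TFA 18 of 29 and 16 of 21 were lower than TFA, in ASP+TFA 20 of 29 and 11 of 21 were higher, and in ASP+MSG+TFA 16 of 29 and 13 of 21 were higher. Gnas, the stimulatory G protein subunit through which adrenergic signals reach lipolysis, had 9.61, 9.71 and 9.97 in MSG+TFA, 10.55, 10.48 and 10.32 in ASP+TFA and 10.18, 9.89 and 10.05 in ASP+MSG+TFA, against 9.85, 9.46 and 10.11 in TFA. The ASP+TFA arrays were above all TFA arrays, by 0.64 ± 0.18 (limma, unadjusted p = 0.00413, adjusted p = 0.186). Fitm1, a protein of droplet formation known from muscle, went the other way in ASP+TFA, by -0.72 ± 0.20 (0.00502 and 0.186), but its mean of 7.18 was near the dim level.

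Downstream of Gnas, 2 protein kinase A subunits lay on opposite sides of TFA in ASP+MSG+TFA, without overlap. Prkaca, the catalytic subunit, differed by -0.15, 0.16 and 0.14 ± 0.15, and Prkar2b, the main regulatory subunit of fat cells, by -0.11, -0.27 and -0.38 ± 0.18 (adjusted p = 0.177 for ASP+MSG+TFA). On the synthesis side, Hsd17b12, a reductase of fatty acid elongation, differed by -0.21, -0.18 and -0.44 ± 0.17 (adjusted p = 0.135 for ASP+MSG+TFA) and Agpat3, an acyltransferase, by -0.19, -0.04 and -0.34 ± 0.14 (adjusted p = 0.147). Acsl3, which activates fatty acids, was lower in ASP+MSG+TFA than in ASP+TFA by -0.53 ± 0.23 (unadjusted p = 0.0432, adjusted p = 1). Usf1, an E-box factor, read below the dim level on every array.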

How the data were processed

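Visceral adipose RNA was measured on 12 Affymetrix Mouse Gene 1.0 ST arrays, and groups and replicate numbers came from the sample titles. The deposited values are linear intensity per probe set, which the authors background-adjusted and normalized with GCRMA in Partek. No further background step was applied. The table holds 241576 probe sets. Of these, 212138 name 1 gene, 4672 name several and 24766 were unnamed, and only the first were used. Symbols were updated through RefSeq's gene table. Intensities were turned to log2, and a gene's value was the median over its probe sets (median 8), which cannot separate transcripts. The dim level was set where 90% of 1161 receptor genes of smell and pheromone sensing had a lower mean.

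Diet means were estimated over 12 arrays with limma 3.58.1 in R 4.3.3 (two-sided moderated tests, 8 residual degrees of freedom), with Benjamini-Hochberg adjustment over all genes. Calls required an adjusted p under 0.05 and, for contrasts, at least 1.4-fold, the limits of the study's methods. Errors are limma's SE unless SD is named. The 3 arrays per diet limit the precision. Lists got counts and medians without a test. Values per array were given for the 12 genes with the smallest F test p, the 2 genes a side with the smallest p in each contrast against TFA, Lpin1 and Plin5. Of the other pathway genes, the 4 a side with the smallest F test p were named. Fads2, Fabp4, Mlxipl, Dgat2, Plin4, Lpl and Gpihbp1 were added after their values were seen. The genes and lists were chosen with earlier results of these data known. Same-numbered arrays of MSG+TFA and TFA deviated together from their diet means (correlations 0.593, 0.632 and 0.661 over genes), so the numbers were taken to pair these diets. Some unlike-numbered arrays of other diets reached like values, such as 0.644 for MSG+TFA replicate 1 with ASP+TFA replicate 2. The procedure was tested on simulated data. Alternatives were another summary of probe sets, a filter on dim genes, other normalizations, replicate block, raised arrays as a term or left out, epididymis markers as a term, array weights, a spread prior with a trend, an unmoderated one-way test and leaving out each array. Adipocyte markers as a term and the paired fit of MSG+TFA and TFA were added after seeing the data.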

Additional observations from a re-analysis of the deposited data

How the results depend on the processing

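The count of genes called stayed at 0 under most alternatives. It was 1 for ASP+TFA, 2 for ASP+MSG+TFA and 1 for the F test with the brightest probe set, 2 for ASP+MSG+TFA with the replicate block, and 2 for ASP+TFA with the epididymis marker level as a term. With array weights it was 7615 for ASP+TFA, 7671 for ASP+MSG+TFA, 5039 for ASP+MSG+TFA against MSG+TFA and 10892 for the F test. Leaving out 1 array gave 0 to 5413 for ASP+TFA, 0 to 6042 for ASP+MSG+TFA and 0 to 3786 for the F test, the upper values without TFA replicate 3, which leaves only raised arrays in TFA, and 0 in the other comparisons. The brightest probe set also moved the median of all genes to -0.18 in ASP+TFA and -0.17 in ASP+MSG+TFA. Without TFA replicate 3 Plin5 was called in ASP+TFA (-0.63, limma adjusted p = 0.0385) and ASP+MSG+TFA (-0.80, adjusted p = 0.015). It was 1 of 37 genes in each, against 5413 and 6042 of all 20358 genes. With array weights, which gave TFA replicate 3 0.172 and ASP+TFA replicate 1 5.98, Plin5 was called in both (-0.58 and -0.75), as were Elovl6 (1.05) and Srebf1 (0.53) in ASP+TFA. There 5 of 37 genes were called in ASP+TFA, against 7615 of 20358, and 1 of 37 in ASP+MSG+TFA, against 7671. In each of these fits the share of the 37 genes was below that of all genes. The replicate block in the paired fit of MSG+TFA and TFA called 0 genes.

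The synthesis median in ASP+TFA was -0.0775 on the 8 arrays that were not raised and 0.21 with array weights, and in ASP+MSG+TFA -0.15 with raised arrays as a term and -0.18 on the 8 arrays. The storage and breakdown median in ASP+TFA was -0.12 with raised arrays as a term. Leaving out 1 array moved the synthesis medians between -0.18 and -0.0017 in MSG+TFA, 0.0045 and 0.18 in ASP+TFA, and -0.09 and 0.11 in ASP+MSG+TFA, and the storage and breakdown medians between -0.14 and 0.03, -0.05 and 0.13, and -0.03 and 0.07. Among the differences of the named genes tracked, 9 turned sign. With the brightest probe set Lpin1 (0.0093) and Slc27a1 (0.0433) in ASP+MSG+TFA and Plin1 (-0.0038) in ASP+TFA, with raised arrays as a term Plin1 (-0.0159) and Plin3 (-0.034) in ASP+TFA, and on the 8 arrays Plin1 (-0.041), Plin3 (-0.0634) and Srebf1 (-0.0400) in ASP+TFA and Plin3 (-0.0069) in ASP+MSG+TFA. Over all 37 genes, 14 turned in ASP+TFA and 8 in ASP+MSG+TFA with the brightest probe set, 16 and 12 with raised arrays as a term, and 16 and 13 on the 8 arrays. The level of synthesis minus storage and breakdown averaged -0.17 in ASP+TFA, -0.36 in ASP+MSG+TFA and -0.31 in TFA with the mean of probe sets, and -0.17 in MSG+TFA, 0.0909 in ASP+TFA, -0.20 in ASP+MSG+TFA and -0.19 in TFA with the brightest probe set. The causes were not tested. Of the other values, 316 counts, medians and levels moved by less than the spread of the arrays or by under 1.5 times, and 491 differences of single genes kept their direction and side of the threshold. The replicate block over 12 arrays changed no other call. Array number and the dim level, near which Plin5 lies, limit what these data can show.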
